A study of Homo sapiens with 4 samples.

Results

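The C/EBP genes encode CCAAT/enhancer-binding proteins, and the 6 rows of the gene table named CEBPA, CEBPB, CEBPD, CEBPE, CEBPG and CEBPZ were followed here, 6 of 26733 genes. The rows were taken by gene name, but the family was chosen on the difference between treated and untreated counts in these same libraries, which was already in view. The members' own differences are therefore given as a description, without p-values. Gene expression was measured by sequencing polyadenylated RNA of Jurkat cells, a human T-cell acute lymphoblastic leukaemia line, in 2 libraries of cells exposed for 24 h to GNE987 at a labelled 25 nmol (no volume is given) and 2 libraries of cells without it. GNE987 is a degrader: it carries a ligand of the BET bromodomain proteins and a ligand of the VHL ubiquitin ligase. All libraries come from the same line, so no group differs in genotype, and the labels do not say whether replicates were separate cultures. The p-values below therefore reflect sample-to-sample spread alone, and part or all of that spread could be technical.

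Members of the C/EBP family proper are basic leucine zipper (bZIP) transcription factors that bind DNA as pairs, with each other or with relatives of the ATF and AP-1 groups. C/EBP-alpha and C/EBP-epsilon are best known from granulocytes, where the first starts and the second completes the neutrophil programme; C/EBP-beta and C/EBP-delta act in inflammation and in fat and liver cells; and C/EBP-gamma, which lacks an activation domain of its own, pairs with the others and with ATF4. CEBPZ shares the name for binding a CCAAT element but has no leucine zipper, and its yeast relative Noc1 assembles the large ribosomal subunit. T cells are not a classical site of C/EBP-alpha or C/EBP-epsilon action.

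CEBPE was the most abundant bZIP member in untreated Jurkat cells per unit of gene length, and it was nearly gone with GNE987. CEBPB was higher with GNE987 and took its place as the most abundant. CEBPA and CEBPZ were lower, CEBPG differed little, and CEBPD was barely detected in any library. Of the 6 members 5 passed the filter on low counts. In the CPM of these 5 (library-scaled counts, with factors from the TMM method) the treated and untreated libraries did not overlap, with 2 members higher and 3 lower. The libraries did not overlap for 91.1% of all 15910 genes tested either (44.6% higher with GNE987 and 46.6% lower), so the absence of overlap is common to most genes here.

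The untreated libraries were not alike. In 85.5% of the 15910 genes tested untreated replicate 2 lay on the GNE987 side of untreated replicate 1, at a median of 19.9% of the way to the GNE987 mean. The members shared this: the way covered was 11% for CEBPA, 25.3% for CEBPB, 11% for CEBPE, 15.1% for CEBPG and 23.6% for CEBPZ. The cause was not tested. With untreated replicate 2 left out, the members' log2 fold changes came to -0.96 for CEBPA, 1.55 for CEBPB, -4.73 for CEBPE, 0.27 for CEBPG and -1.07 for CEBPZ.

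CEBPE, the granulocytic factor C/EBP-epsilon, had 1613 and 1311 counts in untreated replicates 1 and 2 and 38 counts in each GNE987 library. These are 72.4 and 64.7 CPM against 2.49 and 2.75 CPM. Both untreated libraries were high and both treated ones low, and the spread inside each pair was small beside the gap. The mean went from 68.6 ± 5.43 to 2.62 ± 0.183 CPM (SD, n = 2), which on the log2 scale is -4.71 ± 0.16 (SE), or 26.1-fold lower. Only 139 of the 15910 genes tested (0.874%) had a log2 fold change at or below that of CEBPE, and among the 8888 genes with an untreated mean of at least 10 CPM there were 46. Leaving out any library in turn kept the value between -4.78 and -4.62. In the authors' deposited table CEBPE also had a log2 fold change of -4.71.

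CEBPA, the founding member and a myeloid master regulator, was a minor transcript. It had 206 and 177 counts in untreated replicates 1 and 2, and 45 and 87 counts in GNE987 replicates 1 and 2. In CPM the untreated libraries, at 9.25 and 8.74, were close to each other, and the treated ones, at 2.95 and 6.30, were not. It changed by -0.96 ± 0.38 (SE) on the log2 scale, from 8.99 ± 0.359 to 4.63 ± 2.37 CPM (SD, n = 2). It was -0.51 without GNE987 replicate 1 and -1.60 without GNE987 replicate 2. The 2 treated libraries were 2.13-fold apart in CEBPA, while the median over 3493 genes with a mean CPM within 2-fold of CEBPA was 1.15-fold and 2.18% of them were as far apart. The size of the CEBPA difference thus rests on which treated library is read.

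CEBPB, the inflammatory and metabolic factor C/EBP-beta, had 940 and 1249 counts in the untreated libraries and 1709 and 1737 with GNE987. In CPM these are 42.2 and 61.7 against 112 and 126. All values with GNE987 were above all values without it, but untreated replicate 2 lay above untreated replicate 1. The mean went from 51.9 ± 13.8 to 119 ± 9.68 CPM (SD, n = 2), which on the log2 scale is 1.20 ± 0.20 (SE), or 2.29-fold. It was 0.95 without untreated replicate 1 and 1.55 without untreated replicate 2. Counts per gene cannot tell the long and short proteins that are translated from the CEBPB message apart.

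CEBPG, the dimer partner C/EBP-gamma, stayed near its untreated level. It had 1031 and 960 counts without GNE987 and 846 and 715 with it, which are 46.3 and 47.4 CPM against 55.5 and 51.8 CPM. The log2 fold change was 0.20 ± 0.11 (SE) with TMM factors and -0.18 ± 0.14 with library size alone, a scaling that shifted the typical gene (the median over genes tested) by -0.37. The direction of CEBPG therefore depends on the scaling.

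CEBPD, the acute phase factor C/EBP-delta, had 0 and 3 counts in the untreated libraries and 4 counts in each GNE987 library. It did not pass the filter. At this depth 3 counts correspond to between 0.135 and 0.217 CPM, so no change could be detected and no fold is given.

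CEBPZ, the member without a leucine zipper, had 645 and 512 counts without GNE987 and 184 and 202 with it. The CPM was 28.96 and 25.3 without GNE987, and 12.1 and 14.6 with it. The untreated pair lay above the treated pair, with a mean of 27.1 ± 2.6 against 13.4 ± 1.81 CPM (SD, n = 2), or -1.02 ± 0.16 (SE) on the log2 scale, 2.03-fold lower. Over the 4 settings with a library left out it ranged from -1.17 to -0.89.

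**Figure D1:**
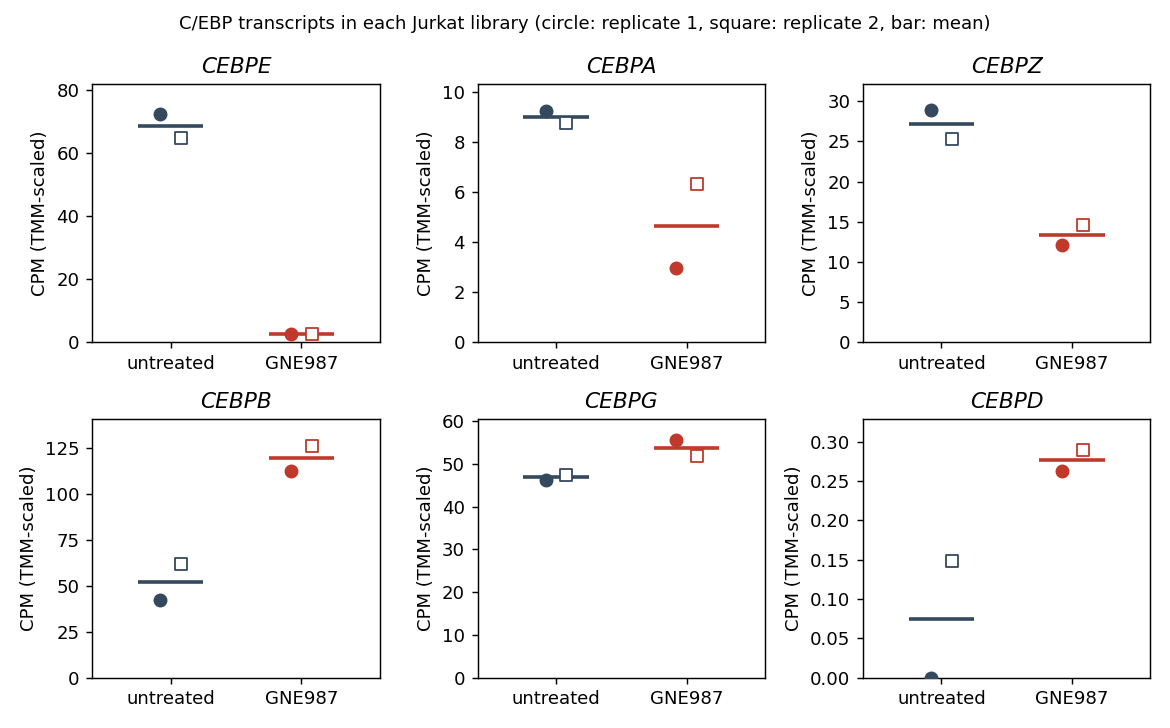
TMM-scaled CPM (vertical axis, from 0, a separate scale per panel) of the 6 C/EBP genes in untreated and GNE987 libraries. Circles are replicate 1, squares replicate 2 and bars the mean of 2 libraries. CEBPE goes from 72.4 and 64.7 CPM to 2.49 and 2.75 CPM, the treated values of CEBPA lie apart (2.95 and 6.30 CPM), and CEBPD stays below 0.3 CPM throughout.

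The authors' FPKM values, which are scaled for gene length, allow levels to be compared between members. In the untreated libraries the order was CEBPE (46.7 and 40.6 FPKM), CEBPB (21.6 and 30.7), CEBPG (10.5 and 10.5), CEBPA (3.52 and 3.23) and CEBPD (0 and 0.0662). No neighbours in this order overlapped. With GNE987 CEBPB led (56.6 and 63.7 FPKM), followed by CEBPG (12.4 and 11.6). CEBPE (1.58 and 1.75) and CEBPA (1.11 and 2.37) overlapped there, and CEBPD was last (0.119 and 0.132). CEBPZ had 7.99 and 6.78 FPKM without GNE987 and 3.28 and 3.99 with it.

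The summed level of the 5 bZIP members differed less between the groups than CEBPE or CEBPB alone. It was 82.3 and 85.0 FPKM in the untreated libraries and 71.8 and 79.6 FPKM in the treated ones. Both treated sums lay below both untreated ones. The size of this gap rests on the scaling of the libraries, and library size alone shifted the typical gene by -0.37 on the log2 scale. CEBPE made up 56.7% and 47.7% of this sum without GNE987 and 2.21% and 2.2% with it, and CEBPB 26.3% and 36.1% without and 78.8% and 80.0% with it. CEBPE was 2.16-fold and 1.32-fold above CEBPB in untreated replicates 1 and 2, while CEBPB was 35.7-fold and 36.3-fold above CEBPE in the GNE987 libraries. Shares of a sum are tied to each other, so the lower CEBPE raises the share of every other member. These are message levels; no protein was measured.

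**Figure D2:**
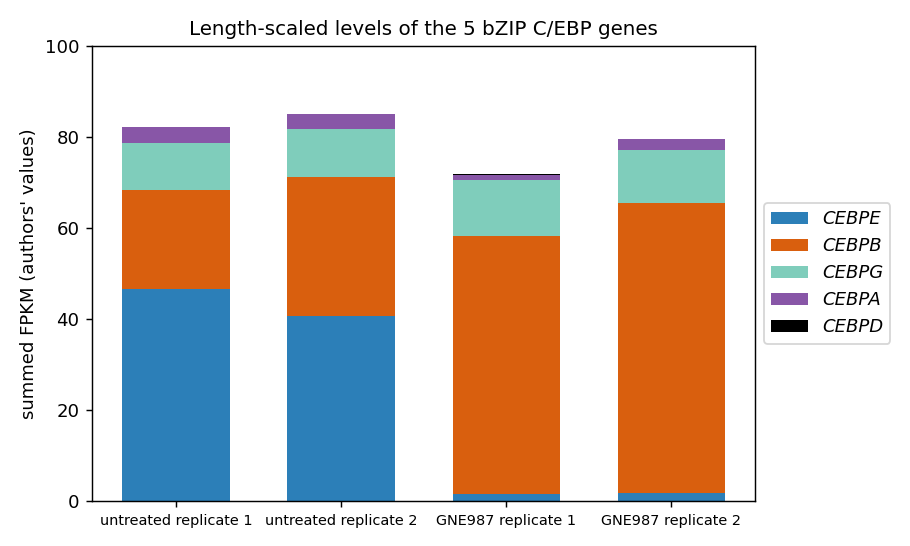
Authors' FPKM of the 5 bZIP C/EBP genes stacked for each library (vertical axis, summed FPKM; single libraries, no error bars). The total lies between 71.8 and 85.0 FPKM and is lower in both GNE987 libraries. The largest part is CEBPE in the untreated libraries and CEBPB in the GNE987 libraries.

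Promoter windows of 5 members were read from RefSeq (GRCh38.p14), and the 250 bases before the start are shown for CEBPE and CEBPB, whose levels went opposite ways, and for CEBPG, which carries an ATF4-type element. Capitals mark matches, on either strand, to 6 motifs picked after the windows had been seen: the CCAAT box, written CCAAT; the AP-1 site, written TGAGTCA; the composite C/EBP-ATF core, written TGATGCAA; the TATA box, written TATAAA; the GC box, written GGGCGG; and the E-box of MYC, written CACGTG. A match is a string of letters, not a shown binding site.
CEBPE promoter, chr14:23119256-23119505, minus strand: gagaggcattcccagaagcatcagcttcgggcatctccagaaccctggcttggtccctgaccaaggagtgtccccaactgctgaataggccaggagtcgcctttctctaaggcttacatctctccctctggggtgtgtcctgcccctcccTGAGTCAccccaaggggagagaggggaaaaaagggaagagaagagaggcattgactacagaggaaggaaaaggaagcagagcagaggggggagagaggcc
CEBPB promoter at the downstream RefSeq start, chr20:50190580-50190829, plus strand: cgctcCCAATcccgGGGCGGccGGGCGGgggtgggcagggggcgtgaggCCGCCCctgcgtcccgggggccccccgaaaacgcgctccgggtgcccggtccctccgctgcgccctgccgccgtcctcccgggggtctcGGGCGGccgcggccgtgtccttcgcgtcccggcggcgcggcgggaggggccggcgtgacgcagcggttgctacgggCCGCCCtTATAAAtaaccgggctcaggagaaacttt
CEBPG promoter at the downstream RefSeq start, chr19:33373863-33374112, plus strand: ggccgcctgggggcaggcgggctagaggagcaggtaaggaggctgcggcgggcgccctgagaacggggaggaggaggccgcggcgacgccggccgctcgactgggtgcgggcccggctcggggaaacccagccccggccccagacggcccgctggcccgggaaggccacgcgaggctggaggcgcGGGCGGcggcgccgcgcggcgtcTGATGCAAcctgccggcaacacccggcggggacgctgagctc

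The CEBPE window was poorer in G, C and CpG than those of the other 4 members read. It was 57.2% G or C with 2 CpG dinucleotides, against medians of 64.4% and 20 over 15292 windows of tested genes, and 26.7% of those windows had a lower G and C content. The windows of CEBPA (81.2% and 41 CpG), CEBPB (77.6% and 38 at the start shown) and CEBPG (79.2% and 35) were richer than those medians, and that of CEBPZ (62.8% and 21) lay near them. The CEBPE window held 1 AP-1 string, 100 bases before the start and found in 2.9% of all windows, and none of the other 5 motifs. The CEBPB window held 1 TATA string 29 bases before the start (5.79% of windows), 5 GC boxes (62.5%) and 1 CCAAT (32.6%). The window of its upstream start (75.6% and 25 CpG) held 4 GC boxes and neither a TATA nor a CCAAT string. The CEBPA window held a TATA string at 30 bases and 2 GC boxes. The CEBPG window held the C/EBP-ATF core 42 bases before the start, a string found in 0.392% of windows, and 1 GC box, while the window of its upstream start held 2 CCAAT strings. CACGTG, present in 8.32% of windows, was in none of those of the 5 members read, and the CEBPZ window matched none of the 6 motifs.

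CEBPE lies on chromosome 14 from 23117304 to 23119616 (GRCh38, GENCODE 29). The promoter windows shown for CEBPE and CEBPG lie inside the GENCODE spans of these genes, and that of CEBPB lies partly inside. The RefSeq starts used are downstream of the GENCODE ones. Counts per gene were tested over all 15910 genes with edgeR's quasi-likelihood test at a Benjamini-Hochberg adjusted p of 0.05; 71.6% of genes passed, 34.4% higher and 37.2% lower with GNE987. Of 18 tested genes within 200 kb of CEBPE 4 rose, 7 fell and 7 did not pass. The 4 that rose, LMLN2 among them, had at most 10 counts in an untreated library. They passed the filter through the GNE987 group alone, so their number is not read as a result. The log2 fold changes of the 18 ran from -2.60 to 3.84, and none was as low as the -4.71 of CEBPE. On the nearest sides, SLC7A8, an amino acid transporter gene, stood at 13.5 ± 0.647 CPM with GNE987 beside 14.1 ± 0.218 in untreated cells (adjusted p = 0.693), and LMLN2 rose from 0.0988 ± 0.14 to 1.45 ± 0.0036 CPM (adjusted p = 0.0124). LMLN2 did not pass without GNE987 replicate 1 (adjusted p = 0.0993) or GNE987 replicate 2 (0.0964). The lowest of the 18 was ACIN1, a splicing-linked gene named here after its value was seen, at -2.60 ± 0.16 (adjusted p = 0.000321).

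CEBPA and CEBPG lie on the same chromosome, 19, from 33299934 to 33302564 and from 33373330 to 33382686. PEPD, the prolidase gene beside CEBPG, stood at 208 ± 5.86 CPM with GNE987 beside 218 ± 1.13 in untreated cells (adjusted p = 0.625; 0.0215, as lower, with library size alone), and WDR88, on the other side of CEBPA, did not pass either (adjusted p = 0.211). GPATCH1, named to complete the 3 tested genes within 200 kb of CEBPA, was lower with GNE987 at -3.05 ± 0.20 (adjusted p = 0.000333). CEBPB lies on chromosome 20 from 50190734 to 50192689. Its antisense gene CEBPB-AS1, which overlaps it, had 0.789 ± 0.091 CPM with GNE987 and 0.786 ± 0.413 without, a small amount beside the CEBPB reads; without strand, reads of their shared stretch cannot be told apart. TMEM189, the next tested gene, rose by 0.97 ± 0.21 on the log2 scale (adjusted p = 0.00917); it did not pass without GNE987 replicate 1 (adjusted p = 0.0514) or replicate 2 (0.0802).

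CEBPZ lies on chromosome 2 from 37201612 to 37231713 and shares its locus with genes on the opposite strand. CEBPZOS, a small gene read from that strand, fell by 1.62 ± 0.26 (adjusted p = 0.00368), and NDUFAF7, an assembly factor of respiratory complex I, by 0.83 ± 0.27 (adjusted p = 0.0381). The library kit does not mark the strand, so reads in the shared stretches cannot be told apart. The NDUFAF7 call was lost in 7 settings, among them RLE size factors (adjusted p = 0.0541), DESeq2 (0.0875), the replicate block (0.0657) and without untreated replicate 1 (0.0593), without GNE987 replicate 1 (0.128) or without GNE987 replicate 2 (0.155). PRKD3, a protein kinase gene next to CEBPZ, fell by 2.36 ± 0.34 (adjusted p = 0.00277), and EIF2AK2, the kinase PKR on the other side, by 1.59 ± 0.20 (adjusted p = 0.002). Of the 6 tested genes within 200 kb of CEBPZ these 4 fell. HEATR5B rose by 1.59 ± 0.18 (adjusted p = 0.00148) and GPATCH11 did not pass (0.224), both named to complete the 6. Over all genes tested 71.6% were called, 37.2% as lower and 34.4% as higher, so calls are common here. SPIDR and PRKDC flank CEBPD; PRKDC, the DNA-dependent protein kinase, fell by 1.59 ± 0.14 (adjusted p = 0.00058) and SPIDR had an adjusted p of 0.159. SPIDR passed, as higher, with upper-quartile scaling (0.0312) and the filter of 10 CPM (0.0494). Its log2 fold change was 0.26, and 0.45 without untreated replicate 2.

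Over the 32 tested genes within 200 kb of any member 6 rose, 13 fell and 13 did not pass, a called share of 59.4% beside 71.6% of all genes. The 6 include the 4 near CEBPE that passed the filter through the GNE987 group alone. The median log2 fold change of the 32 was -0.07 and that of all genes -0.03. Without GNE987 replicate 1 there were 1 higher and 9 lower, and without GNE987 replicate 2 there were 2 higher and 10 lower. With upper-quartile scaling there were 9 higher and 11 lower. With GNE987 replicate 1 or replicate 2 left out fewer of all genes were called too. Lower counts in those settings, here and for the gene groups below, are thus not read as particular to a group.

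**Figure D3:**
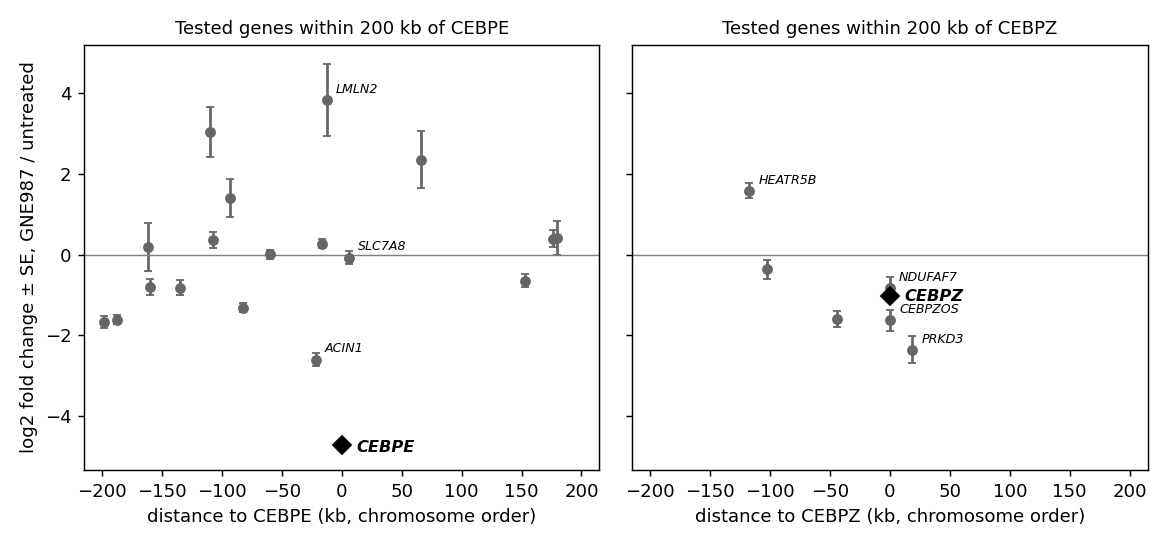
Log2 fold change with GNE987 (vertical axis, ± SE from edgeR) of tested genes against their distance in kb from CEBPE or CEBPZ (horizontal axis, in chromosome order; overlapping genes at 0). Diamonds are the C/EBP genes. CEBPE, at -4.71, lies below all 18 of its neighbours, and CEBPZ, at -1.02, lies between its overlapping genes CEBPZOS and NDUFAF7.

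The gene structures differ within the family. CEBPA, CEBPB and CEBPD have 1 exon in GENCODE 29, CEBPE and CEBPG 2, and CEBPZ up to 16. Of 249 tested protein-coding genes with a single exon, which include CEBPA and CEBPB, 139 rose and 46 fell, 55.8% and 18.5% beside 34.4% and 37.2% of all genes. Their median log2 fold change was 1.20. CEBPB is itself the middle gene of this set, so its value and the median are the same number by identity. Leaving out histone genes, a choice made after the values were seen, gave 113 higher and 46 lower of 208 genes with a median of 0.81. For all 249 genes the median was 1.16 without GNE987 replicate 1 and 1.14 without GNE987 replicate 2. Fewer of them were called in both settings, as over all genes.

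Most bZIP relatives of the C/EBP proteins, partners among them, were higher with GNE987. Of 14 tested bZIP relatives and dimer partners 12 rose and 2 fell, with a median log2 fold change of 1.38, which is 85.7% higher and 14.3% lower beside 34.4% and 37.2% of all genes. ATF4, the stress factor that pairs with C/EBP-gamma, rose from 984 ± 216 to 2070.5 ± 44.2 CPM, by 1.07 ± 0.19 (adjusted p = 0.00514). DDIT3, which encodes the C/EBP homologous protein CHOP, rose from 14.5 ± 1.14 to 23.1 ± 2.44 CPM, by 0.67 ± 0.15 (adjusted p = 0.0119). ATF5 and CREB1, further factors of the ATF/CREB group, rose by 1.71 ± 0.29 and 1.48 ± 0.18. JUN, of AP-1, was at 2158 and 2185 CPM with GNE987 and at 34.3 and 471 CPM in untreated replicates 1 and 2 (adjusted p = 0.0499). The 2 members that fell were BATF and BATF3, lymphoid bZIP factors, at -3.38 ± 0.21 and -3.91 ± 0.20; they are named because only 2 fell.

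Some of these calls were lost in other settings. Without GNE987 replicate 2 the list had 5 higher and 2 lower. DDIT3 did not pass with library size alone (adjusted p = 0.163), without GNE987 replicate 1 (0.0515) or without GNE987 replicate 2 (0.101), and ATF4 not without GNE987 replicate 2 (0.0505). JUN did not pass with DESeq2 (0.0599), robust estimation (0.194), the filter of 10 CPM (0.0557), or without GNE987 replicate 1 (0.147) or replicate 2 (0.149).

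Regulators and cofactors of C/EBP proteins moved both ways. Of 22 tested genes 12 rose, 7 fell and 3 did not pass, with a median of 0.68. This is 54.5% higher and 31.8% lower, beside 34.4% and 37.2% of all genes. Library size alone gave 9 higher and 10 lower, and leaving out GNE987 replicate 1 or GNE987 replicate 2 gave 7 higher with 5 and 4 lower. TRIB2, a pseudokinase that marks C/EBP-alpha for degradation, fell from 38.6 ± 1.73 to 16.4 ± 0.901 CPM, by 1.23 ± 0.13 (adjusted p = 0.000999). Its relative TRIB1 had under 1.1 CPM in every library and was not tested. STAT3, an inducer of CEBPB and CEBPD in cytokine signalling, rose by 1.5 ± 0.20 (adjusted p = 0.00226). E2F1, whose activity C/EBP-alpha restrains, rose by 0.81 ± 0.15 (adjusted p = 0.00576), but not without GNE987 replicate 1 (0.0627) or replicate 2 (0.0652). RUNX1, which controls CEBPA in blood progenitors, stood at 145 ± 8.71 CPM with GNE987 beside 154 ± 1.31 in untreated cells (adjusted p = 0.53; 0.0196 with library size alone). CALR, which encodes calreticulin, had an adjusted p of 0.0932 (0.00228 with library size alone, 0.0373 without the filter, and 0.00937 and 0.0167 without untreated replicate 1 or replicate 2). SPI1, the myeloid partner PU.1, had 2 and 1 counts with GNE987 and 0 without.

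**Figure D4:**
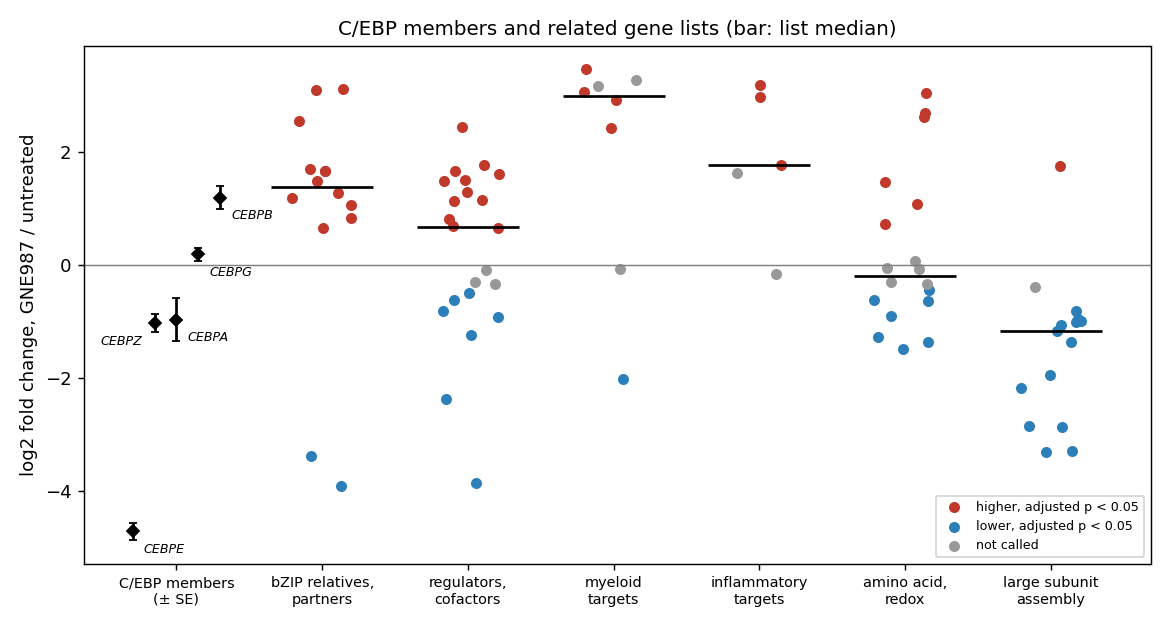
Log2 fold change with GNE987 (vertical axis) of the 5 C/EBP members that passed the filter (diamonds, ± SE) and of the tested genes of 6 related lists (points, 1 per gene; bar, list median). Red and blue points passed an adjusted p of 0.05 in edgeR, grey ones did not. The bars of the myeloid and inflammatory lists are not read as results, since genes there could pass the filter through their high group alone. The bZIP partners have a median of 1.38 and the large subunit assembly genes one of -1.17.

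Genes known from myeloid cells as C/EBP targets were mostly too low to test. Of 22 listed genes 20 had a row and 8 passed the filter, which also keeps genes present in a single group; 4 rose, 1 fell and 3 did not pass. The called share of 62.5% is below the 71.6% of all genes, and since a gene could pass the filter through its high group alone, no median is given. CTSG, the granule protease cathepsin G, fell with GNE987: it was at 140 and 119 CPM in untreated replicates 1 and 2 and at 30.6 and 34.1 CPM in the treated ones, a change of -2.0 ± 0.14 (adjusted p = 0.000379). MPO, the granule peroxidase, was at 72.6 and 77.3 CPM with GNE987 and at 0.0898 and 15.5 CPM without (adjusted p = 0.0702). ITGAM, an integrin of phagocytes, was at 43.1 and 40.4 CPM with GNE987 and at 0.135 and 9.23 CPM without (adjusted p = 0.0531). CD14, an endotoxin co-receptor, was at 24.0 and 26.5 CPM against 0.135 and 4.49 CPM (adjusted p = 0.0272). In these 3 genes the untreated libraries were far apart, replicate 2 being the higher, as in JUN. CD14 did not pass with DESeq2 (0.0844), with robust estimation (0.123), or without GNE987 replicate 1 (0.126) or replicate 2 (0.139). ITGAM passed with RLE size factors (0.048), upper-quartile scaling (0.0412), library size alone (0.0408) and without the filter (0.0379). Without untreated replicate 1 or replicate 2 the log2 fold change was 2.27 or 9.64 for MPO and 2.18 or 8.25 for ITGAM. Those fits hold no spread of the untreated pair, so their p-values are not read. The list had 1 higher and 1 lower gene without GNE987 replicate 1, and 0 and 1 without GNE987 replicate 2.

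Genes used as markers of cell types moved beside these genes. The summed CPM of 10 myeloid markers, of which 8 are also in the lists of myeloid targets and regulators, was 0.853 and 33.0 in untreated replicates 1 and 2 and 158 and 164 with GNE987. Most of the GNE987 sums came from MPO (72.6 and 77.3 CPM), ITGAM (43.1 and 40.4) and CD14 (24.0 and 26.5). Among the 10 markers SPI1 had 0 counts without GNE987 and at most 2 with it, CD33 had 0 counts with GNE987, and ELANE had at most 2 counts. Their part in the result was not tested. All 10 T-cell markers were detected in every library, with a summed CPM of 2680 and 2539 without GNE987 and 1454 and 1584 with it. Of these 10 markers 8 fell and 1 rose, while 37.2% of all genes tested fell and 34.4% rose. LCK fell by 3.83 ± 0.17 and CD3D by 0.40 ± 0.12 (adjusted p = 0.0324, lost in 6 settings), while CD7 was the 1 that rose. CD3E stood at 770 ± 75 CPM with GNE987 beside 573 ± 93.7 in untreated cells (adjusted p = 0.0688). It passed, as higher, with RLE size factors (0.0385), upper-quartile scaling (0.0212), the filter of 10 CPM (0.0293) and DESeq2 (0.0331). The summed CPM of the other lists was also higher with GNE987. B-cell markers summed to 73.4 and 79.1 CPM without GNE987 and to 101 and 112 CPM with it, where CD79A rose and BLK fell. Erythroid and megakaryocyte markers summed to 1.12 and 1.43 CPM without and 9.58 and 8.33 CPM with GNE987. Most of the treated sums was ITGA2B, at 7.48 and 7.46 CPM, which rose by 3.53 ± 0.38 (adjusted p = 0.00115). KLF1 did not pass (adjusted p = 0.493). Fibroblast and epithelial markers summed to 2.65 and 2.72 CPM without and 9.19 and 9.49 CPM with GNE987. Most of the treated sums was COL1A1, at 8.53 and 8.62 CPM, which rose by 2.49 ± 0.32 (adjusted p = 0.00197). PDGFRB had 24 and 12 counts without GNE987 and 5 and 2 with it, a change of -1.78 ± 0.68 (adjusted p = 0.0588). Some markers of these lists were not analysed here. All libraries are labelled as Jurkat cells alone, so these sums do not show that other cell types were present, which was not tested. In bulk RNA, fewer cells of a type and less RNA per cell cannot be told apart.

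Inflammatory targets, best known from C/EBP-beta and C/EBP-delta, were near the limit of detection. Of 16 listed genes 5 were tested, and 3 rose, a called share of 60% beside 71.6% of all genes. SOCS3, a brake on cytokine signalling, rose from 3.22 ± 0.549 to 11.01 ± 0.4 CPM, by 1.77 ± 0.23 (adjusted p = 0.00217). C3, of complement, and HP, haptoglobin, rose by 3.18 ± 0.64 and 2.97 ± 1.0 (adjusted p = 0.00771 and 0.0405) at levels under 2.4 CPM. C3 had 31 and 33 counts with GNE987 and 2 and 8 without, and HP 28 and 17 against 0 and 8. Both thus passed the filter through the GNE987 group alone, so the called share is not read as a result about the list. Neither C3 nor HP passed without GNE987 replicate 1 (adjusted p = 0.0588 and 0.231) or GNE987 replicate 2 (0.0703 and 0.149), which left SOCS3 as the 1 gene called, and HP was also lost with DESeq2 (0.0582) and the replicate block (0.0942). TNF stood at 3.16 ± 0.659 CPM with GNE987 beside 3.51 ± 0.203 in untreated cells (adjusted p = 0.662). Of the 12 fat and liver targets 2 were tested. SLC2A4, the insulin-regulated glucose transporter, fell by 2.60 ± 0.46 (adjusted p = 0.00491), and SCD, a lipid desaturase, stood at 209 ± 1.27 CPM with GNE987 beside 222 ± 6.89 in untreated cells (adjusted p = 0.502; 0.0204, as lower, with library size alone).

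Amino acid and redox genes served by ATF4 and C/EBP-gamma did not move as a block. Of 18 tested genes 6 rose, 7 fell and 5 did not pass, 33.3% higher and 38.9% lower with a median of -0.18, close to the 34.4% and 37.2% of all genes. Library size alone gave 6 higher and 11 lower, and without GNE987 replicate 1 or replicate 2 there were 2 higher with 3 and 4 lower. SLC3A2, the heavy chain of amino acid exchangers, rose from 410 ± 51.2 to 679 ± 26.1 CPM, by 0.73 ± 0.15 (adjusted p = 0.00783; 0.0669 and 0.0825 without GNE987 replicate 1 or replicate 2). Its light chain SLC7A5 stood at 646 ± 22.9 CPM with GNE987 beside 610.1 ± 0.0916 in untreated cells (adjusted p = 0.572). PHGDH, the first enzyme of serine synthesis, fell by 0.44 ± 0.12 (adjusted p = 0.0237), but not with upper-quartile scaling (0.146), the filter of 10 CPM (0.0874), the replicate block (0.0511), or without GNE987 replicate 1 (0.209) or replicate 2 (0.132). MTHFD2, of mitochondrial folate metabolism, had an adjusted p of 0.0587 and passed, as lower, in 4 alternatives.

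Genes of large ribosomal subunit assembly were lower together with CEBPZ. Of 15 tested genes 13 fell and 1 rose, 86.7% lower beside 37.2% of all genes, with a median log2 fold change of -1.17 beside -0.03. The 4 most abundant, all nucleolar factors, had values near the -1.02 of CEBPZ: BOP1 at -1.17 ± 0.13, RSL1D1 at -1.06 ± 0.13, FTSJ3 at -0.99 ± 0.13 and EBNA1BP2 at -0.95 ± 0.13. BOP1 went from 327 ± 18.2 to 146 ± 10.2 CPM (adjusted p = 0.00136). The exception was NOP2, which rose by 1.76 ± 0.41 (adjusted p = 0.0123) and is named because it was the only gene of the list to do so. No gene of the list was called higher without GNE987 replicate 1, without GNE987 replicate 2 or with the filter of 10 CPM.

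The genes nearest to each member by their centred log2 CPM profile over the 4 libraries (Euclidean distance, with 0 for identical profiles) were of mixed kinds. Those closest to CEBPE were WDR43, a ribosome assembly factor, at a distance of 0.0797, then STEAP1 (0.103), MRPL46 (0.136), LINC02273 (0.138) and ZNF485 (0.15). With GNE987 STEAP1 had 2 counts, LINC02273 3 counts and ZNF485 0 counts in each library, so their distances rest on the prior count. WDR43 went from 92.8 ± 12.2 to 3.52 ± 0.246 CPM. Those closest to CEBPB were TRIM35 (0.0234), OSR2 (0.0261), CTNS (0.0329), ATP5PD (0.0374) and GRN (0.038), the last encoding progranulin. LGALS9, the lectin galectin-9, and COMMD4 were among those closest to CEBPZ (0.0398 and 0.0419), with NPAS2 (0.0387), BLOC1S5 (0.0435) and RNPEPL1 (0.0439). TDRD9 (0.0177), DYRK4 (0.0183), DNAJC21 (0.0188), RBBP7 (0.0229) and ATP5MC3 (0.0271) were closest to CEBPG. CEBPA had IPO4 (0.116), DISC1 (0.122), KCNS3 (0.138), SEPT5 (0.176) and KISS1R (0.183), all under 3.1 CPM, where counting noise adds to the profile. With 4 libraries many profiles lie close together.

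The response of known BET-dependent genes was visible in the same libraries. MYC was at -4.32 ± 0.17 (adjusted p = 0.000292), HEXIM1 at 2.01 ± 0.37 (0.0056), BRD2 at 1.91 ± 0.31 (0.00391) and BRD3 at 0.86 ± 0.13 (0.00335). The degrader acts on protein, so these messages do not measure its target.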

How the data were processed

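Gene expression was sequenced from polyadenylated RNA of 2 GNE987 and 2 untreated Jurkat libraries. Alignment with HISAT2 2.2.0 to hg38 is listed in the submitters' processing notes; for the counter and annotation nothing is given in the sources used here. In the deposited table were raw counts per gene, judged from the column names and whole values, a normalized signal that per the file headers is a separate column per library (count over 1 size factor, 100% of counts recovered within 0.01, so the raw counts were tested), FPKM values by the authors, and the authors' log2 fold change with p-values from an unnamed test. Total counts were 16041022 to 18938465.

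Of 26733 genes, all matched to GENCODE 29, filterByExpr (minimum count 10, total 15) kept 15910. Counts were TMM-scaled, and edgeR 4.0.16's quasi-likelihood test was run in R 4.3.3 (2 residual degrees of freedom), with Benjamini-Hochberg adjustment over all genes tested and a threshold of 0.05; the scripts were tested on simulated data. The SE is the log2 fold change over the root of F. CPM is over the filtered library times its TMM factor; reads carry no molecular identifiers, so floors cover counting error only. Neither pair was a repeated library (chi-square per degree of freedom 36.0 untreated, 4.76 treated). Alternatives were RLE, upper-quartile and no scaling factors, 2 other filters, DESeq2 1.42.0, robust edgeR, a replicate block and each library left out.

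Members, 7 pathway lists and 5 marker lists (166 entries, 17 without a row and not analysed here) were chosen with earlier results of these data known. Named genes are the members, DDIT3, ATF4, TRIB1, TRIB2, RUNX1, SPI1, 5 BET-response genes, the 4 most abundant tested genes per pathway list and 3 per marker list, nearest and overlapping tested neighbours, and the 5 nearest profiles per member (log2 CPM, prior count 2); exceptions are marked. Not every marker is printed, and some named genes are not reported here.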

Additional observations from a re-analysis of the deposited data

How the results depend on the processing

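CEBPA, CEBPB, CEBPE and CEBPZ kept their direction in every alternative run that tested them (CEBPA is not tested at 10 CPM). CEBPE was at -4.51 with upper-quartile scaling, -5.08 with library size alone and -4.53 with the 10 CPM filter, and CEBPZ at -1.40 with library size alone. CEBPG was at 0.29 with RLE, 0.39 with upper-quartile scaling, 0.050 without the filter, 0.37 with the 10 CPM filter and -0.18 with library size alone; the median of all genes moved by 0.198 with upper-quartile scaling, -0.146 without the filter and 0.171 with the 10 CPM filter. With a library left out the ranges were -1.60 to -0.51 for CEBPA, 0.95 to 1.55 for CEBPB, -4.78 to -4.62 for CEBPE, 0.15 to 0.27 for CEBPG and -1.17 to -0.89 for CEBPZ. Genes called were 11387, and 6070 to 12921 with a library left out; library size alone gave 4103 higher and 7164 lower in place of 5467 and 5920 (36.4% of calls higher in place of 48.0%). Called members of the lists then ranged from 7 to 14 for bZIP partners, 11 to 21 for regulators, 1 to 7 for myeloid, 1 to 4 for inflammatory and 5 to 15 for amino acid genes, 12 to 15 for subunit assembly, 82 to 222 for single-exon genes and 10 to 22 for neighbours. With the 10 CPM filter the counts were 2 for myeloid, 0 of 0 tested for inflammatory, 0 for fat and liver and 115 for single-exon genes, since fewer genes are tested. Inflammatory genes had 5 calls without the filter, myeloid genes 3 with DESeq2 and fat and liver genes 2 with library size alone; the cause was not tested.

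Of 80 named genes other than members none that passed in the main test changed sign in an alternative. Some genes that did not pass there passed under a different scaling, with signs that differed between scalings. RUNX1, PEPD and SCD passed as lower with library size alone and were positive with upper-quartile scaling. SPIDR, TDRD9, DYRK4, DNAJC21, RBBP7 and ATP5MC3 passed as higher with upper-quartile scaling and were negative with library size alone. Sign changes of values that did not pass were, with RLE, RUNX1 0.0044, PEPD 0.025, CEBPB-AS1 0.089 and SLC7A8 0.023; with upper-quartile scaling RUNX1 0.11, TNF 0.045, SCD 0.11, PEPD 0.13, CEBPB-AS1 0.19 and SLC7A8 0.13; with library size alone SLC7A5 -0.29, SPIDR -0.10, TDRD9 -0.19, DYRK4 -0.16, DNAJC21 -0.16, RBBP7 -0.17 and ATP5MC3 -0.15; without the filter SLC7A5 -0.063; and with the 10 CPM filter RUNX1 0.083, SCD 0.078, PEPD 0.10 and SLC7A8 0.10. With a library left out TNF ran from -0.38 to 0.046, KLF1 from -0.75 to 1.26 and CEBPB-AS1 from -0.39 to 0.67. The replicate block, a fit with the replicate number as a term, gave 4534 higher and 5267 lower, CEBPE at -4.70, CEBPB at 1.22, CEBPA at -1.04, CEBPZ at -1.02, CEBPG at 0.20 and CEBPB-AS1 at 0.072. The deviations of same-numbered libraries had a correlation across genes of -0.0059. The untreated pair was far less alike than the treated pair (chi-square per degree of freedom 36.0 and 4.76). The correlation therefore cannot tell whether the numbers mark a pairing, and the labels do not state it. Depth limits CEBPD, SPI1 and most target genes, which had too few counts to test.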
